A study of Cricetiscus sungorus with 12 samples.

Results

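The genes described here are 10 genes of adenosine signalling, transport and breakdown, chosen by their mouse GeneIDs for these roles. They comprise the receptors Adora1 (11539), Adora2a (11540), Adora2b (11541) and Adora3 (11542), the ectonucleotidases Entpd1 (12495) and Nt5e (23959), the transporters Slc29a1 (63959) and Slc29a2 (13340), and the intracellular enzymes Adk (11534) and Ada (11486). Of these 10 genes, 9 had a record among the 17191 GeneIDs in the files, and all 9 passed the filter on low counts in every comparison. No record carried the GeneID of Adora3, so that receptor was not analysed here.

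Extracellular adenosine is formed at the cell surface when ectonucleotidases remove phosphates from released ATP, it signals through 4 G protein-coupled receptors, and it is cleared by equilibrative transporters and by intracellular enzymes. In the brain it builds up when energy use outruns supply and promotes sleep, and activation of its A1 receptor lowers body temperature in rodents.

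RNA was sequenced from the hypothalamus of adult Djungarian hamsters of both sexes from an outbred colony, 1 hamster per library, all sampled at ZT 4, that is 4 h after lights on. LP-NT hamsters (n = 4; 2 males, 2 females) lived under long photoperiod with 16 h of light per day and were normothermic. SP-NT hamsters (n = 4; 2 males, 2 females) were acclimated to short photoperiod with 8 h of light per day and were normothermic on a torpor-free day. SP-HT hamsters (n = 4; 3 males, 1 female) were kept under the same short photoperiod and were hypothermic in a bout of spontaneous daily torpor, a fall of metabolic rate and body temperature that lasts some hours. The short photoperiod hamsters carried telemetry transmitters and the LP-NT hamsters did not, so in any comparison with LP-NT photoperiod and implantation cannot be told apart. Being in torpor and having a low body temperature likewise coincide in SP-HT. In a tissue block, fewer cells of a type and less RNA per cell cannot be told apart either.

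Library totals ranged from 20204979 to 24186918 expected counts. LP-NT 01 was the library least like the others of its group, with a mean Spearman correlation of 0.984 across 13940 genes, against 0.989 to 0.994 for the other 11 libraries. SP-NT 19, labelled male, had 0 counts in 2 records that held at least 342 counts in each of the other 6 males and at most 5 in each of the 5 females. The cause was not tested, and its label was kept throughout, also where sex was a covariate. As a check of the tissue, the neuropeptide precursors Avp, Trh and Pomc were present in all 12 hamsters at no less than 81.8, 30.9 and 10.6 CPM (counts scaled to a common library size, with trimmed mean of M-values factors). All 10 hypothalamic marker records tested had counts, and their summed level was 470 to 620 CPM in LP-NT, 399 to 618 CPM in SP-NT and 293 to 467 CPM in SP-HT. The records entered as Agrp and Pmch were scarce, with as little as 0.121 and 0.0411 CPM, and 2 of the 10, Pomc among them, were called lower in SP-HT than in LP-NT. The record entered as Rbm3, a cold-inducible RNA-binding protein, was higher in SP-HT than in SP-NT (log2(FC) 0.72, edgeR adjusted p = 0.0329), in the direction of the torpor label. Its estimate was also higher in SP-NT than in LP-NT, both normothermic (log2(FC) 0.61, edgeR adjusted p = 0.377). The record entered as Cirbp, the other cold-inducible gene looked at, differed little between SP-HT and SP-NT (log2(FC) −0.04, edgeR adjusted p = 0.786).

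The adenosine genes fell into an abundant and a scarce set when their levels were compared per length, in TPM, the abundance unit of RSEM that corrects for transcript length and depth. Averaged over all 12 hamsters, Adk stood at 76.7 ± 6.54 TPM, Nt5e at 69.1 ± 7.86 TPM and Adora1 at 67.3 ± 7.08 TPM (SD, n = 12). The ranges of these top 3 overlapped, and Adk exceeded Nt5e in 9 of 12 hamsters while Nt5e exceeded Adora1 in 7 of 12. Adora1 was above Slc29a1 (35.3 ± 2.47 TPM) in 12 of 12 hamsters without overlap, and Slc29a1 was above Entpd1 (15.0 ± 3.75 TPM) in the same way. The scarce genes were Adora2b (7.92 ± 0.93 TPM), Slc29a2 (6.27 ± 3.88 TPM), Ada (4.32 ± 0.80 TPM) and Adora2a (2.22 ± 0.54 TPM). Ranges of neighbours overlapped throughout this lower end, although Entpd1 exceeded Adora2b and Ada exceeded Adora2a in 12 of 12 hamsters. Both orders depend on the effective length of the records, which for Entpd1 was 657 to 1087 bases. In CPM, Adora2b (8.01 to 11.99) lay above Entpd1 (3.15 to 5.93), and Ada lay below Adora2a in SP-HT 02 (1.40 and 1.53).

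**Figure D1:**
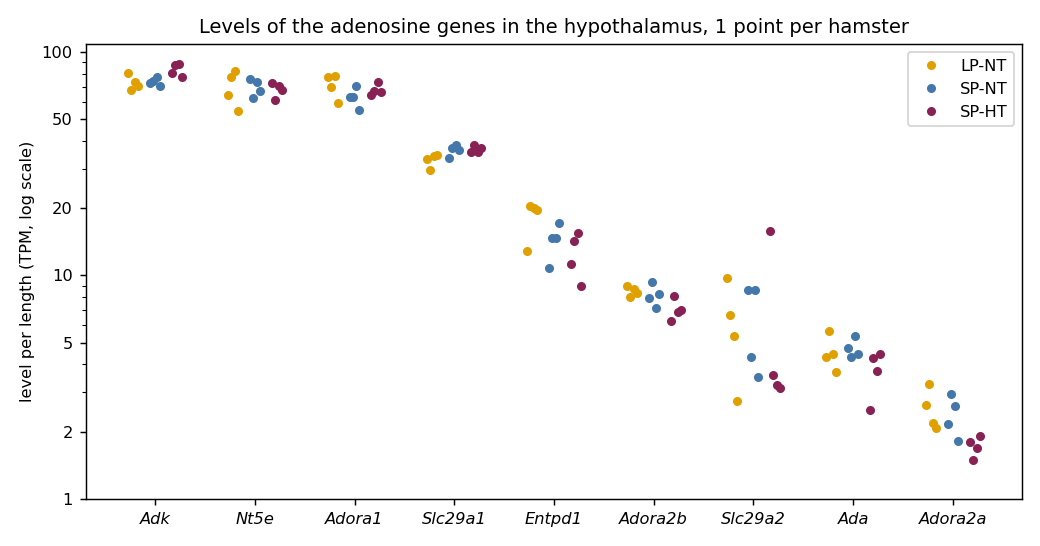
Level per length (TPM, log axis) of the 9 adenosine genes in each hamster, ordered by mean level, with 1 point per hamster and groups in colour. Adk, Nt5e and Adora1 lie between 54.7 and 88.7 TPM in all 12 hamsters, and 1 SP-HT hamster stands apart for Slc29a2 at 15.8 TPM.

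The 3 comparisons asked what differed between photoperiods in normothermic hamsters (SP-NT against LP-NT), with torpor under short photoperiod (SP-HT against SP-NT) and with both (SP-HT against LP-NT). Each pair of comparisons shares a group of 4 hamsters, so they are not independent of each other. No adenosine gene passed the test in any of them: 0 of 9 for photoperiod, 0 of 9 for torpor and 0 of 9 for torpor with photoperiod, by the edgeR quasi-likelihood test with Benjamini-Hochberg adjustment over all genes tested and a threshold of 0.05. Over all genes tested the same rule called 0.0370% (6 of 16199), 2.40% (389 of 16195) and 1.37% (221 of 16157). At an unadjusted p under 0.05 the adenosine genes counted 0 for photoperiod, 2 for torpor (Adora1 and Adk) and 3 for torpor with photoperiod (Adora2a, Entpd1 and Slc29a1), where 4.84%, 18.4% and 15.1% of all genes tested met that limit. DESeq2 also called 0 of 9 in each comparison, where it called 0.212%, 6.96% and 4.74% of all genes given an adjusted p.

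The estimated differences were small. Changes are given as log2(FC), positive where the first-named group was higher, with the standard error (SE) from the edgeR fit. The torpor directions rest on the group labels of the libraries, and the study's own list of named genes signs its torpor changes the other way. They spanned −0.22 to 0.17 for photoperiod, −0.41 to 0.18 for torpor and −0.56 to 0.18 for torpor with photoperiod. The median of the 9 was −0.01, −0.17 and −0.16, against 0.00 over all genes in each of the 3 comparisons. The 95% confidence interval of the change lay within 2-fold either way for 9, 9 and 8 of the 9 genes and within 1.5-fold for 7, 5 and 5. The exception at 2-fold was Adora2a in SP-HT against LP-NT.

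**Figure D2:**
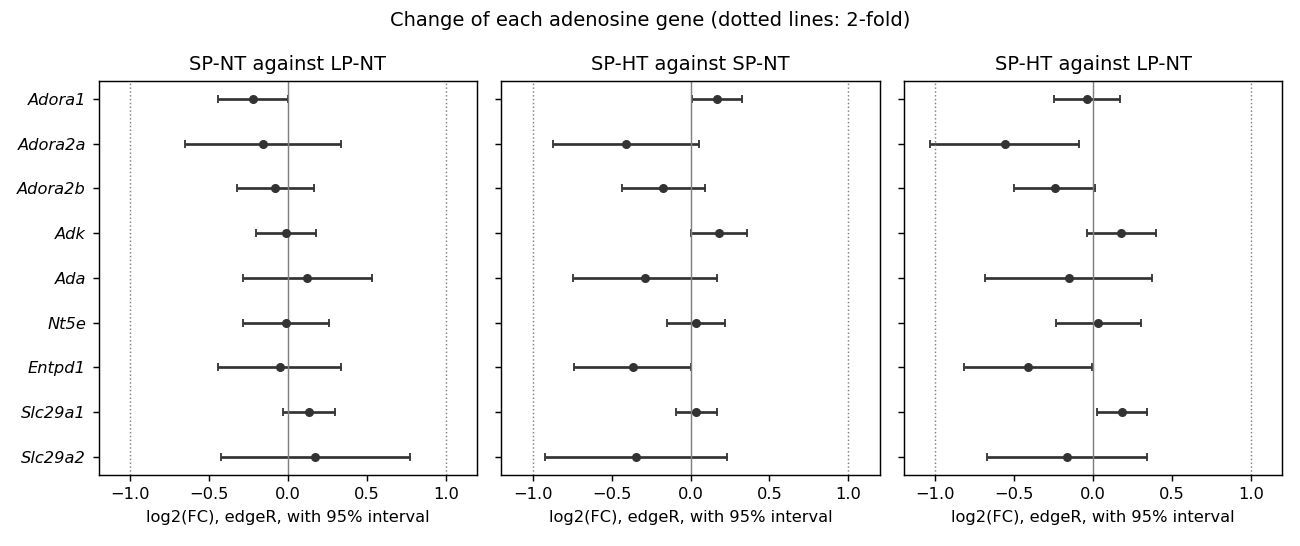
log2(FC) of the 9 adenosine genes in the 3 comparisons, with points for the edgeR estimate and bars for its 95% confidence interval (n = 4 hamsters per group). Most intervals cross 0, and those of Adora1 and Adk for torpor and of Adora2a, Entpd1 and Slc29a1 for SP-HT against LP-NT lie to 1 side of it without passing the adjusted threshold.

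The CPM values of the groups did not overlap for 0 of 9 adenosine genes in photoperiod and 0 of 9 in torpor, against 3.44% and 12.1% of all genes tested. In SP-HT against LP-NT they did not overlap for 2 of 9, against 10.6% of all genes tested. These 2 were Adora2a, lower in every SP-HT hamster than in any LP-NT hamster, and Slc29a1, higher in every SP-HT hamster. Neither passed the adjusted threshold.

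**Figure D3:**
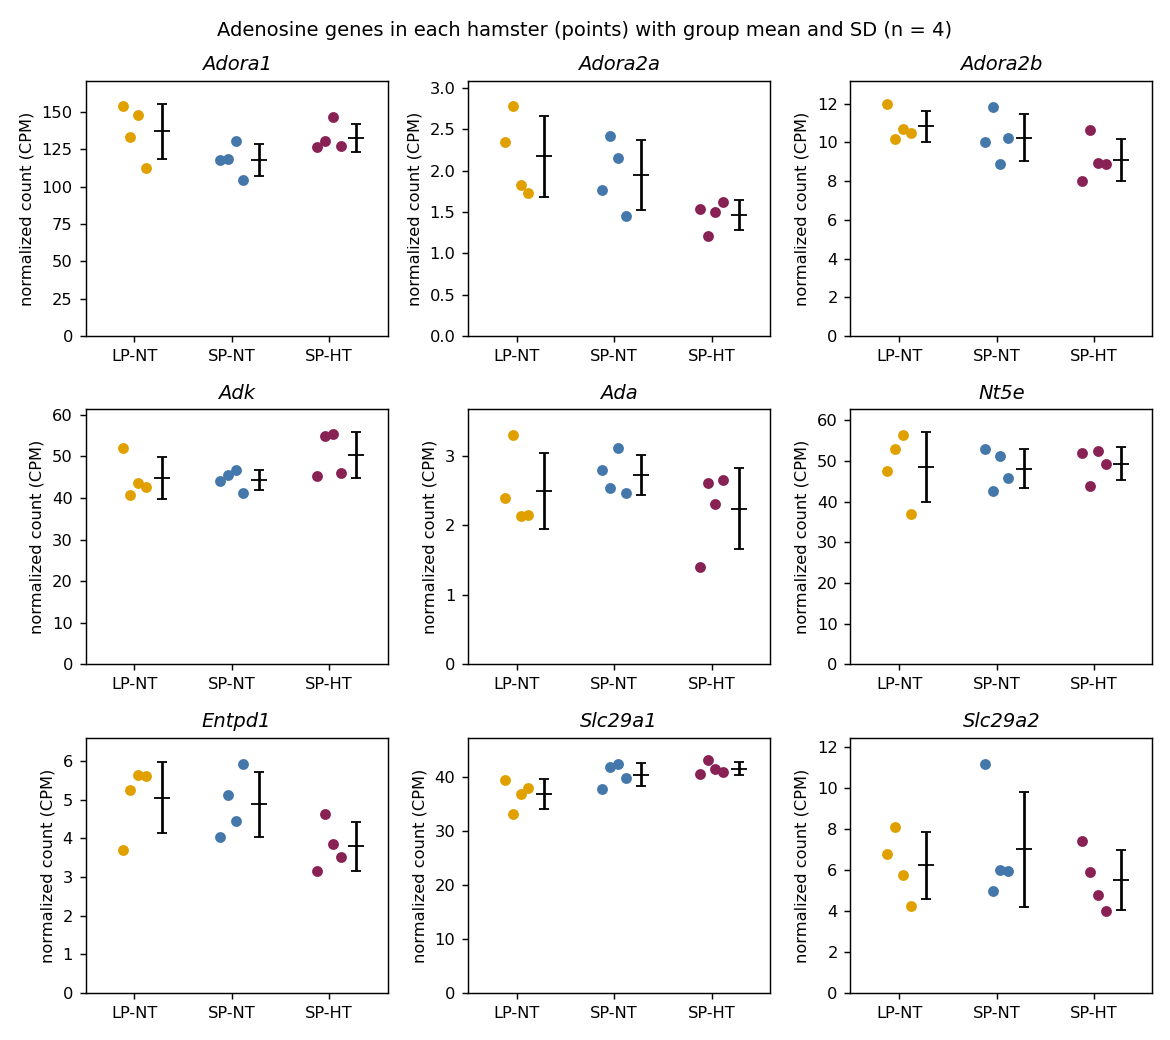
Normalized counts (CPM) of the 9 adenosine genes in each of the 12 hamsters, with 1 panel per gene, points for hamsters and bars for the group mean and SD (n = 4). Adora2a and Slc29a1 separate SP-HT from LP-NT, and the groups overlap in every other panel.

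Among the receptors, Adora1, the inhibitory A1 receptor that is widespread on neurons, was by far the most abundant. Its level was 154, 133, 148 and 113 CPM in the LP-NT hamsters 01, 02, 03 and 05. In SP-NT it was 118, 119, 130.4 and 105 CPM (hamsters 19, 36, 37 and 38), and in SP-HT 127, 131, 147 and 127 CPM (hamsters 02, 10, 26 and 33). SP-NT held the lowest value and LP-NT the highest, and all 4 SP-HT hamsters were above SP-NT 19, 36 and 38 but only SP-HT 10 and 26 above SP-NT 37. Adora1 differed by a log2(FC) of −0.22 ± 0.10 (SE) for photoperiod (edgeR adjusted p = 0.913) and of 0.17 ± 0.07 (SE) for torpor (edgeR adjusted p = 0.241). SP-HT and LP-NT differed by −0.04 ± 0.09 (SE) with an edgeR adjusted p of 0.887, and the interval of this change ran from −0.25 to 0.17. The 3 neuronal marker records summed to 950 to 1025 CPM in LP-NT, 940 to 1072 CPM in SP-NT and 1046 to 1191 CPM in SP-HT, with 0 of 3 called in any comparison, and their part in the Adora1 values was not tested.

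Adora2a encodes a receptor that stimulates adenylate cyclase, best known from the striatum. It was the scarcest of the 9 genes, with only 25 to 64 counts in a library. LP-NT values were 2.35, 2.78, 1.82 and 1.74 CPM, SP-NT values 1.77, 2.41, 2.16 and 1.45 CPM, and SP-HT values 1.53, 1.21, 1.504 and 1.62 CPM. Every SP-HT hamster lay below every LP-NT hamster, and all but SP-NT 38 of the SP-NT hamsters lay above every SP-HT hamster. Its log2(FC) was −0.16 ± 0.22 (SE) for photoperiod and −0.41 ± 0.21 (SE) for torpor, with edgeR adjusted p of 0.936 and 0.328. SP-HT against LP-NT gave −0.56 ± 0.21 (SE), the greatest change of any adenosine gene, with an interval from −1.03 to −0.09 and an edgeR adjusted p of 0.242. Counting error alone gave a coefficient of variation of 15.4% at its mean count, against 25.1% observed over the 12 hamsters. The 6 striatal marker records summed to 260 to 289 CPM in LP-NT, 255 to 269 CPM in SP-NT and 254 to 274 CPM in SP-HT. Of them 1 was called lower in torpor and 0 in the other comparisons, and their part in the Adora2a values was not tested.

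Adora2b, the A2B receptor of low affinity for adenosine, ranged from 10.2 to 11.99 CPM in LP-NT, from 8.89 to 11.8 CPM in SP-NT and from 8.01 to 10.6 CPM in SP-HT. SP-HT held the lowest values but overlapped with both other groups. The log2(FC) was −0.08 ± 0.11 (SE) for photoperiod, −0.17 ± 0.12 (SE) for torpor and −0.24 ± 0.12 (SE) for SP-HT against LP-NT, and edgeR gave adjusted p of 0.936, 0.479 and 0.364.

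Adora1 made up 83.5% to 89.6% of the summed TPM of the 3 receptors measured. Within a hamster, the ratio of Adora1 to Adora2a TPM was 28.8 ± 5.89 for LP-NT, 26.9 ± 4.09 for SP-NT and 39.7 ± 5.19 for SP-HT (SD, n = 4). The SP-HT ratios were 35.9, 44.7, 43.6 and 34.6, all above the SP-NT range of 21.2 to 30.5, while LP-NT reached 35.8 and overlapped. These ratios were formed after the values were seen and are given as a description, with no test. Adora2a had only 25 to 64 counts in a library. Between SP-HT and SP-NT, 12.1% of all single genes tested did not overlap in CPM, and no such share was formed for ratios. Adora1 relative to Adora2b was 8.36 ± 0.88 for LP-NT, 7.76 ± 1.49 for SP-NT and 9.70 ± 1.11 for SP-HT (SD, n = 4), with overlap between all groups.

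**Figure D4:**
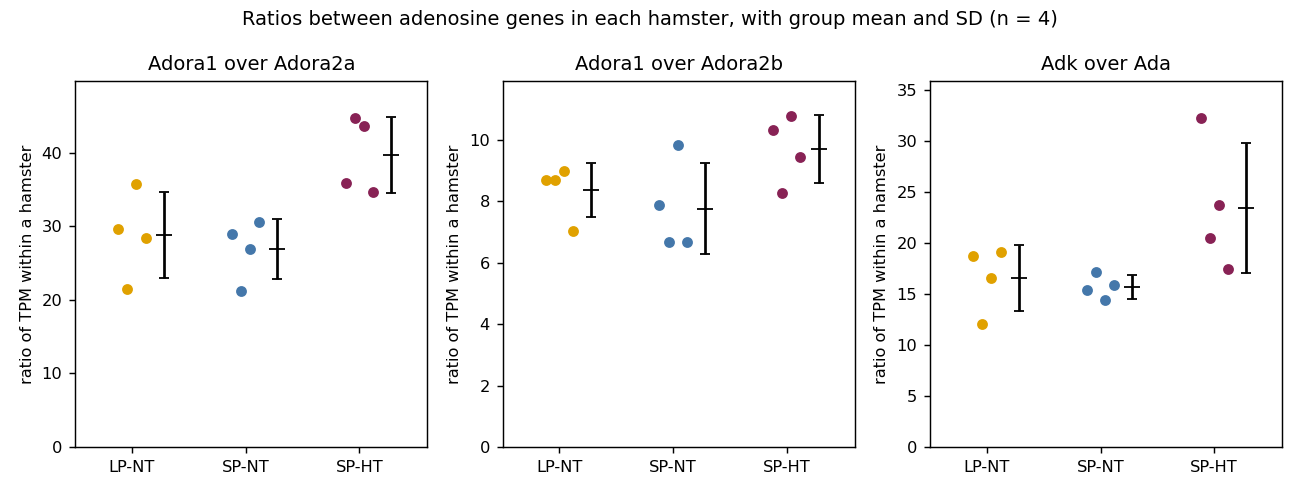
Ratios of TPM within each hamster for Adora1 over Adora2a, Adora1 over Adora2b and Adk over Ada, with points for hamsters and bars for the group mean and SD (n = 4). In SP-HT the Adora1 over Adora2a ratio runs from 34.6 to 44.7 and the Adk over Ada ratio from 17.4 to 32.2, overlapping LP-NT in both. The highest SP-NT ratios are 30.5 and 17.2, and no test was made.

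For the formation of adenosine outside the cell, Entpd1 (CD39) takes ATP and ADP to AMP and Nt5e (CD73) takes AMP to adenosine. Entpd1 had 3.71, 5.25, 5.65 and 5.62 CPM in LP-NT, 4.02, 5.12, 4.45 and 5.93 CPM in SP-NT, and 3.15, 4.63, 3.85 and 3.53 CPM in SP-HT. Values in SP-HT were the lowest on average, but LP-NT 01, SP-NT 19 and SP-NT 37 fell inside the SP-HT range. Entpd1 differed by −0.05 ± 0.18 (SE) for photoperiod, −0.37 ± 0.17 (SE) for torpor and −0.41 ± 0.18 (SE) for SP-HT against LP-NT, with edgeR adjusted p of 0.970, 0.274 and 0.321. The effective length of its record moved between 657 and 1087 bases from hamster to hamster, and with DESeq2 given these lengths the difference became −0.37 for photoperiod, −0.15 for torpor and −0.52 for SP-HT against LP-NT (DESeq2 adjusted p = 0.991, 0.815 and 0.263). In TPM, which divides by that length, LP-NT stood at 18.2 ± 3.62, SP-NT at 14.3 ± 2.63 and SP-HT at 12.5 ± 2.93 (SD, n = 4). Entpd1 is strongly expressed by microglia. The 6 microglial marker records summed to 223 to 245 CPM in LP-NT, 213 to 246 CPM in SP-NT and 208 to 248 CPM in SP-HT, and 0 of 6 were called in any comparison.

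Nt5e had estimated differences near 0 in each comparison. It ranged from 36.9 to 56.5 CPM in LP-NT, from 42.8 to 52.9 CPM in SP-NT and from 43.8 to 52.5 CPM in SP-HT, and both short photoperiod groups lay inside the LP-NT range. The log2(FC) was −0.01 ± 0.12 (SE) for photoperiod, 0.04 ± 0.08 (SE) for torpor and 0.03 ± 0.12 (SE) for SP-HT against LP-NT, with edgeR adjusted p of 0.985, 0.864 and 0.931. For torpor the interval reached from −0.15 to 0.22. The Nt5e to Entpd1 ratio of TPM was 3.93 ± 0.93 for LP-NT, 5.05 ± 1.39 for SP-NT and 5.70 ± 1.57 for SP-HT (SD, n = 4), with overlapping ranges.

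Slc29a1 (ENT1), the main equilibrative transporter that carries adenosine across the plasma membrane, varied least of the 9 genes, by 7.15% around its mean CPM over all hamsters. It measured 39.5, 33.1, 36.8 and 38.0 CPM in LP-NT, 37.7, 41.8, 42.4 and 39.8 CPM in SP-NT, and 40.5, 43.2, 41.5 and 40.9 CPM in SP-HT. All SP-HT hamsters were above all LP-NT hamsters, and SP-NT overlapped both. The change was 0.18 ± 0.07 (SE) for SP-HT against LP-NT with an interval from 0.02 to 0.34 and an edgeR adjusted p of 0.261. Photoperiod gave 0.13 ± 0.07 (SE) and torpor 0.04 ± 0.06 (SE), with edgeR adjusted p of 0.913 and 0.781. The 4 endothelial marker records summed to 178 to 199 CPM in LP-NT, 157 to 193 CPM in SP-NT and 179 to 230.2 CPM in SP-HT, with 0 of 4 called in any comparison, and their part in the Slc29a1 values was not tested.

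Slc29a2 (ENT2), another equilibrative transporter, was the most variable of the 9 genes, and its direction depended on the scale. It had 6.79, 8.12, 5.74 and 4.25 CPM in LP-NT, 11.2, 4.95, 6.0 and 5.97 CPM in SP-NT, and 7.40, 5.88, 4.79 and 4.02 CPM in SP-HT. SP-NT 19, the hamster with no counts in records held by all other labelled males, had the highest value, and the groups overlapped. The log2(FC) was 0.17 ± 0.27 (SE) for photoperiod, −0.34 ± 0.26 (SE) for torpor and −0.16 ± 0.23 (SE) for SP-HT against LP-NT, with edgeR adjusted p of 0.944, 0.525 and 0.794. Without SP-NT 19 the photoperiod change was −0.14 and the torpor change −0.03. The effective length of the Slc29a2 record ranged from 1269 to 4796 bases, 3.78-fold, where Adora1 varied 1.03-fold. In TPM the SP-HT hamsters stood at 15.8, 3.59, 3.23 and 3.13, and the 15.8 TPM of SP-HT 02 came with the shortest effective length. DESeq2 with the lengths taken into account gave a torpor change of 0.07 (DESeq2 adjusted p = 0.973), opposite in sign to the fit on counts alone.

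**Figure D5:**
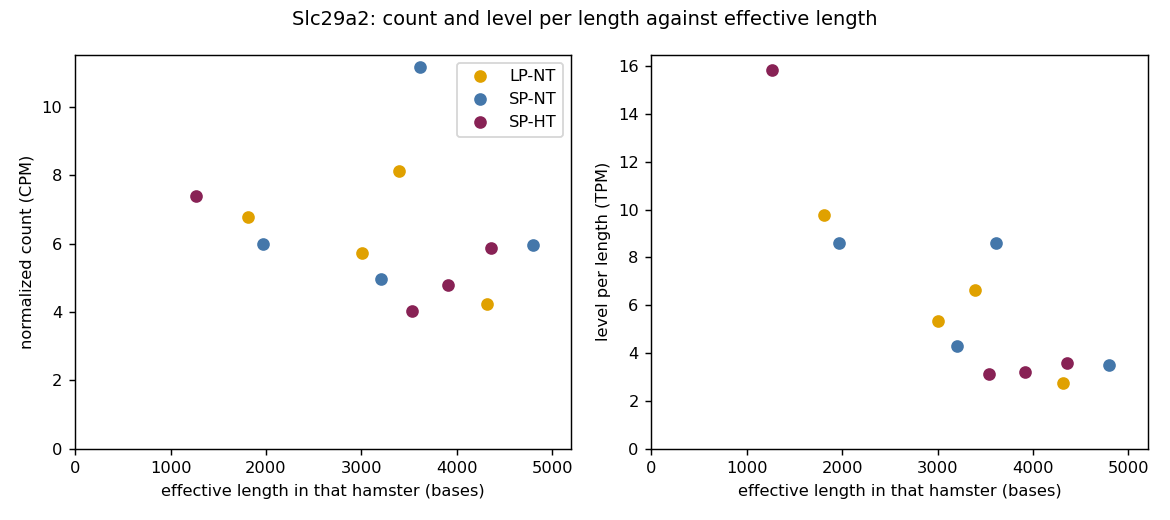
Slc29a2 in each hamster, with effective length of its record (bases) on the x axis and CPM (left) or TPM (right) on the y axis, and groups in colour. The hamster with the shortest effective length, 1269 bases, has the highest TPM at 15.8 but 7.40 CPM, while the highest CPM, 11.2, belongs to SP-NT 19.

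Intracellular adenosine is phosphorylated to AMP by Adk, adenosine kinase, and deaminated to inosine by Ada. Adk had 52.0, 40.7, 43.5 and 42.5 CPM in LP-NT, 44.0, 45.5, 46.7 and 41.2 CPM in SP-NT, and 45.3, 54.9, 55.3 and 45.9 CPM in SP-HT. SP-HT 10 and 26 held the highest values of all, whereas SP-HT 02 and 33 lay among the SP-NT hamsters. Adk differed by 0.18 ± 0.08 (SE) for torpor with an interval from 0.00 to 0.36 and an edgeR adjusted p of 0.264. Photoperiod gave −0.01 ± 0.08 (SE) and SP-HT against LP-NT 0.18 ± 0.10 (SE), with edgeR adjusted p of 0.984 and 0.432. In TPM Adk stood at 73.0 ± 5.43 for LP-NT, 73.7 ± 2.73 for SP-NT and 83.4 ± 5.52 for SP-HT (SD, n = 4), and DESeq2 with effective lengths gave a torpor change of 0.23 (DESeq2 adjusted p = 0.0735), the lowest adjusted p of any adenosine gene under any setting. Adk is most abundant in astrocytes in the adult brain. The 4 astrocyte marker records summed to 886 to 1082 CPM in LP-NT, 813 to 958 CPM in SP-NT and 837 to 994 CPM in SP-HT, with 0 of 4 called. SP-HT 10 and 26, which were high for Adk, also had the highest sums of the 3 oligodendrocyte marker records, 5420 and 6283 CPM, with 0 of 3 called. Sums were 3620 to 4017 CPM in the other SP-HT hamsters, 3405 to 4638 CPM in SP-NT and 3607 to 4726 CPM in LP-NT. This was not particular to oligodendrocyte markers. SP-HT 10 and 26 also had the highest neuronal (1152 and 1191 CPM) and endothelial (204 and 230.2 CPM) marker sums of all hamsters. These 2 libraries had the lowest trimmed mean of M-values factors, 0.964 and 0.961, against 0.987 to 1.025 in the others. A lower factor raises every CPM value of a library. In TPM, which does not use these factors, Adk was also highest in these 2 hamsters (87.3 and 88.7). LP-NT 01, with 52.0 CPM of Adk, had an oligodendrocyte sum of 4012 CPM. The part of these markers and of the factors in the Adk values was not tested.

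Ada was scarce, with 32 to 76 counts in a library. It ranged from 2.14 to 3.30 CPM in LP-NT, from 2.46 to 3.11 CPM in SP-NT and from 1.40 to 2.65 CPM in SP-HT. The lowest value was that of SP-HT 02, and the groups overlapped. The log2(FC) was 0.12 ± 0.18 (SE) for photoperiod, −0.29 ± 0.21 (SE) for torpor and −0.16 ± 0.24 (SE) for SP-HT against LP-NT, and edgeR gave adjusted p of 0.942, 0.500 and 0.814. Adk over Ada in TPM was 16.6 ± 3.23 for LP-NT, 15.7 ± 1.17 for SP-NT and 23.4 ± 6.38 for SP-HT (SD, n = 4). In SP-HT the 4 ratios were 32.2, 20.5, 23.7 and 17.4, all above the SP-NT maximum of 17.2 and 1 of them below the LP-NT maximum of 19.1. The lowest SP-HT ratio, 17.39 in SP-HT 33, was close to the highest SP-NT ratio, 17.18 in SP-NT 36, and Ada had few counts. This ratio, too, was formed after the values were seen and is a description with no test. Apart from it and Adora1 over Adora2a, the ratios formed overlapped between SP-HT and SP-NT.

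Other genes of adenosine and ATP handling gave no calls by edgeR either. Of 54 such records listed by GeneID, 49 were tested, and edgeR called 0 higher and 0 lower in each of the 3 comparisons, with 0, 6 and 4 of the 49 at an unadjusted p under 0.05, that is 0%, 12.2% and 8.16% beside the shares of all genes given above. Their median log2(FC) was 0.00 for photoperiod, 0.02 for torpor and 0.04 for torpor with photoperiod. By role as listed, the tested records were 10 enzymes of nucleotide breakdown or adenosine formation and 5 further nucleoside transporters. The others were 8 genes of deamination and purine salvage, 11 genes of receptor signalling and 15 ATP receptors or release channels. The enzyme list summed to 302 to 343 CPM in LP-NT, 299 to 365 CPM in SP-NT and 313 to 385 CPM in SP-HT. By group mean, much of this came from the records entered as Nt5c2 (130 to 153 CPM), Enpp2 (79.9 to 86.3 CPM) and Ahcy (30.9 to 42.6 CPM). These enzymes are not specific to ATP or AMP, so the sum is no measure of adenosine formation. DESeq2 called 1 of the 49 in each torpor comparison, where it called 6.96% (torpor) and 4.74% (SP-HT against LP-NT) of all genes. The record called was that entered as Nt5c2, a cytosolic nucleotidase. It was higher in SP-HT, by 0.17 against SP-NT (DESeq2 adjusted p = 0.0177) and by 0.24 against LP-NT (DESeq2 adjusted p = 0.00243).

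The records whose log2 CPM followed Adora1 and Adora2a most closely over the 12 hamsters had Pearson correlations of 0.954, 0.939 and 0.931 with Adora1 and of 0.892, 0.890 and 0.863 with Adora2a, out of 13939 records with a mean of at least 1 CPM. None of these 6 records was an adenosine gene or a gene of the lists. The correlations are a description over hamsters that share groups and library features.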

How the data were processed

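Poly(A) RNA libraries of 12 hamster hypothalami were processed by the authors: reads were checked and trimmed (FastQC 0.11.9, Trim Galore 0.6.6), mapped to a de novo hamster transcriptome (Bowtie 1.3.0) and quantified (RSEM 1.3.1), and transcripts were joined under the GeneID of their best mouse protein match. The deposited files give for each GeneID an expected count, a TPM value and an effective length in bases. A record can therefore pool related transcripts, and its effective length can differ between hamsters.

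Expected counts were rounded and tested with edgeR 4.0.16 (quasi-likelihood, TMM) in R 4.3.3, over GeneIDs with at least 10 counts summed over the 8 hamsters compared. Adjustment was by Benjamini-Hochberg at 0.05, with no covariate. Libraries of a group differed by 6.79 to 37.7 times counting noise (chi-square per degree of freedom), so none was a duplicate. Alternatives were DESeq2 1.42.0 (also with effective lengths), other filters and normalization, sex as a covariate, a length offset, 1 fit over all hamsters, and each hamster left out. The scripts were tested on simulated data.

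The files hold GeneIDs without names. The names of the 10 adenosine genes came with their GeneIDs, and the other names were entered by hand. Of 49 such pairs that could be checked against the values (the sign for torpor aside) that the study lists for named genes, 48 matched, and the mismatched gene was left out. Of the 93 pairs in the pathway and marker lists only 4 (Avp, Trh, Pomc and P2ry1) were among those checked, so list genes are given mainly as counts. The few others named with values (Nt5c2, Enpp2, Ahcy, Dpp4, Rbm3, Cirbp, Agrp and Pmch, chosen after their values were seen) carry names that were not checked. It had been planned to name the top genes of each list and the genes most like Adora1 and Adora2a, which needed a table of names not used here. The adenosine genes and the lists were chosen with earlier results of these data known.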

Additional observations from a re-analysis of the deposited data

Results flagged for a closer look

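A hamster far from the other 3 of its group was looked for in 102 sets of 4 values, namely the CPM, TPM and effective length of each adenosine gene and the ratios between them, by Dixon's criterion at its 95% limit. It was met in 8 sets, and chance alone meets it in about 1 in 20. Slc29a2 accounted for 3 of the 8. Its CPM in SP-NT 19 was 11.2, against 4.95 to 6.0 in the other SP-NT hamsters, its TPM in SP-HT 02 was 15.8, against 3.13 to 3.59, and the ratio of Slc29a1 to Slc29a2 in SP-HT 02 was 2.25, against 10.6 to 11.9. Entpd1 in LP-NT 01 stood at 12.8 TPM, against 19.7 to 20.4 TPM in the other LP-NT hamsters. The ratio of Adora1 to Adora2b in LP-NT 05 was 7.05, against 8.70 to 8.97. The remaining 3 concerned effective lengths and were small: 5185 bases for Adora1 in LP-NT 01 (5292 to 5303 in the others), 2332 bases for Adora2a in SP-NT 37 (2260 to 2267) and 1552 bases for Ada in SP-NT 38 (1630 to 1640).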

How the results depend on the processing

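The count of adenosine genes called was 0 in all 49 alternative fits, and of 441 single-gene changes 416 kept their direction, 25 reversed and 0 passed the threshold. The reversals concerned Adora1, Adk, Ada, Nt5e, Entpd1 and Slc29a2, and their cause was not tested. With effective lengths in DESeq2, Slc29a2 turned to −0.013 for photoperiod, 0.074 for torpor and 0.067 for SP-HT against LP-NT, and Nt5e to −0.016 in the last. The length offset in edgeR gave Slc29a2 −0.0053 for photoperiod and 0.0098 for SP-HT against LP-NT, and Nt5e −0.021 in the latter. Leaving out LP-NT 01 and SP-NT 19 together, an alternative chosen after seeing the data, gave photoperiod changes of 0.074 for Adk and −0.099 for Slc29a2. With each hamster left out in turn, photoperiod changes ranged from −0.056 to 0.069 for Adk, −0.12 to 0.071 for Nt5e, −0.17 to 0.031 for Entpd1 and −0.14 to 0.33 for Slc29a2. For torpor Nt5e ranged from −0.017 to 0.091. For SP-HT against LP-NT Adora1 ranged from −0.12 to 0.017, Ada from −0.25 to 0.025 and Nt5e from −0.077 to 0.11.

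Over all genes, calls rose for photoperiod from 6 to 33 with DESeq2 and 32 with lengths. For torpor the 389 calls became 1017 and 759, and fell to 242 with sex as a covariate, 147 with the length offset and to between 104 and 318 with 1 hamster left out, a fall of over 1.5 times for each but SP-HT 33. For SP-HT against LP-NT the 221 calls became 706 and 623, 612 in 1 fit over all hamsters, 103 with the length offset and between 55 and 200 with 1 hamster left out, a fall of over 1.5 times for each but LP-NT 01. Of the 49 pathway records, 1 was called in both torpor comparisons by DESeq2 with and without lengths, and 1 in SP-HT against LP-NT in 1 fit over all hamsters (Nt5c2 as entered), and 0 to 1 for torpor with 1 hamster left out, the 1 being the record entered as Dpp4, without SP-NT 37 (log2(FC) −1.14, edgeR adjusted p = 0.0491). No paired analysis was possible because each hamster gave 1 library and belonged to 1 group only. With 4 hamsters per group, the intervals of Adora2a, Ada, Entpd1 and Slc29a2 reached past 1.5-fold in both torpor comparisons, so a change of that size lay within the error.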
